A study of Rattus norvegicus with 6 samples.

Results

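The genes described here are 10 brakes on mitogen-activated protein kinase (MAPK) signaling, chosen by name as the rows Dusp1, Dusp4, Dusp5, Dusp6, Dusp7, Dusp10, Dusp16, Spry2, Spry4 and Spred1 of a table of raw read counts. All 10 had a row among the 16319 gene symbols of the table. The counts came from RNA-seq of H9c2 cells, a myoblast line from embryonic rat heart, with 3 libraries of Nono-KO cells and 3 of wild type (WT) cells, both grown in serum-containing medium. Nono-KO cells carried a small deletion in exon 6 of Nono, an RNA- and DNA-binding protein of the nucleus, made with a single guide RNA and Cas9 in the plasmid PX459, puromycin selection and expansion of isolated cells. The study's scheme shows 1 monoclonal line, so that the spread between libraries is not the spread between clones. A pEGFP-N1 plasmid was the control plasmid, and the sources used here do not say whether the sequenced WT cells had received it.

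MAP kinases such as ERK, JNK and p38 become active when upstream kinases phosphorylate both a threonine and a tyrosine of their activation loop. The MAPK phosphatases of the Dusp family remove both phosphates, and differ in which kinase they prefer and in whether they sit in the nucleus or the cytoplasm. Sprouty and Spred proteins act higher up, between growth factor receptors, Ras and Raf. Many of these genes are themselves transcribed in response to ERK activity and so form negative feedback loops. In myoblasts and in the heart, ERK signaling is known for its part in growth factor responses, proliferation and the timing of differentiation.

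Libraries held 17612958 to 18770188 counts in Nono-KO and 18138400 to 19253858 counts in WT cells. The counts of Nono were 109, 94 and 96 in Nono-KO libraries against 7329, 5884 and 5519 in the WT libraries, in keeping with the labels. In a principal component analysis of log2 values, WT replicate 1 stood apart from the other WT libraries on the second component (22.3 against -11.2 and -8.51), which held 4.40% of the variance. Levels are given in CPM, counts per 1000000 reads with library totals scaled by the TMM method. Of 10 cardiomyocyte markers 5 were under 1 CPM in every library, while others such as Tnnt2 (127.6 ± 14.5 CPM in Nono-KO and 58.1 ± 38.8 CPM in WT cells, SD, n = 3 each) were expressed. Ryr2 had 0 counts in every library but WT replicate 1, with 1 count, and Nppa had at most 2 counts. Of 8 listed markers of skeletal myoblasts and their differentiation, 6 had a row in the table and Myf5 and Pax7 had none. Myod1 averaged 150.6 ± 9.17 CPM in Nono-KO and 125.9 ± 19.1 CPM in WT cells (SD, n = 3 each).

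The promoters of the member that was higher in Nono-KO cells, Dusp1, of the member with the largest decrease, Dusp5, and of the growth factor antagonist Spry2 are shown here as examples that hold response element letters. RefSeq (build GRCr8) gave a window of 250 bases before to 50 bases after the start for 9 of the 10 genes, all but Dusp4. Capitals mark TGACG, the core letters of the cyclic AMP response element, on either strand and, in Dusp5, the CArG box, the recognition sequence of serum response factor.
Dusp1 (GRCr8 chr10:17184603-17184902, plus strand): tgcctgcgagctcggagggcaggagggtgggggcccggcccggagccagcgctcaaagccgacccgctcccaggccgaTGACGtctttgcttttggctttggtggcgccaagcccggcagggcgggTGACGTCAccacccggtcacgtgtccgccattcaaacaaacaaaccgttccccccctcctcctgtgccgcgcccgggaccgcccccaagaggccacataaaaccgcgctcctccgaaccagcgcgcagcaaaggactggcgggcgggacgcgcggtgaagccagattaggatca
Dusp5 (GRCr8 chr1:262543524-262543823, plus strand): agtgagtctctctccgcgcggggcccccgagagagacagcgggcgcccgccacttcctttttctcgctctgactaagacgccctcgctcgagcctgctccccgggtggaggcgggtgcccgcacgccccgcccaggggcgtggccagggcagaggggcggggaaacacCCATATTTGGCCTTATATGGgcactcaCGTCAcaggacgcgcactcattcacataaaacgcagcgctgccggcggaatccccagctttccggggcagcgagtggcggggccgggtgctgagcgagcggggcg
Spry2 (GRCr8 chr15:89111877-89112176, minus strand): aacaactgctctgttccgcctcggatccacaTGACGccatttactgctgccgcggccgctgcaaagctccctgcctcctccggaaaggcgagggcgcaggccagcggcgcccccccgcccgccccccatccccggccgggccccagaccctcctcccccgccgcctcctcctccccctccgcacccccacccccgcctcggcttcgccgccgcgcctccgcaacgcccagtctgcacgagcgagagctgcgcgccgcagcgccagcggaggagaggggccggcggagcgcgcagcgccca

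Dusp1 was the only one of the 9 with the full element TGACGTCA, which stood in 3.32% of the 9354 promoters of tested genes. Dusp5 was the only one with a CArG box, present in 1.39% of those promoters, and it held 2 of them end to end, in the run CCATATTTGGCCTTATATGG. The core TGACG, which also lies within the full element, was found in Dusp1, Dusp5, Dusp16 and Spry2, 4 of the 9, against 32.8% of promoters of tested genes. The AP-1 letters TGANTCA (4.74% of those promoters) and 1 form of the ETS site, CCGGAAG (18.8%), were in none of the 9 windows, both strands searched. Only these exact letters were searched, so the windows may hold other forms of either site. The windows of the 9 genes were rich in G and C, with a median of 67.0% against 61.0% for promoters of tested genes, and 8 of the 9 had the GC box GGGCGG (63.5% of promoters of tested genes). These matches describe letters only. The groups of genes below were formed by protein function and not by these letters.

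RNA of 9 of the 10 genes was lower and of 1, Dusp1, higher in Nono-KO than in WT cells. Fell and rose mean here a Benjamini-Hochberg adjusted p under 0.05 from edgeR's quasi-likelihood test over all 12028 genes that passed a filter on low counts. By that rule 38.1% of all genes tested fell and 34.2% rose, 72.2% in either direction, so that change by itself was common in this comparison. The median log2 fold change, Nono-KO over WT, of the 10 genes was -2.12, beside -0.05 over all genes tested. By the stricter thresholds that the study used (adjusted p under 0.01, change beyond 1 on the log2 scale), 8 of the 10 were lower (18.7% of all genes tested) and 0 were higher (10.8% of all genes tested), Dusp1 and Dusp16 having smaller changes. All 10 passed the filter, and 1 of them, Dusp4, passed only through the WT libraries, where it was higher. Without Dusp4, 8 of 9 fell and the median was -2.11. In bulk RNA, fewer cells expressing a gene and less RNA per cell cannot be told apart.

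**Figure D1:**
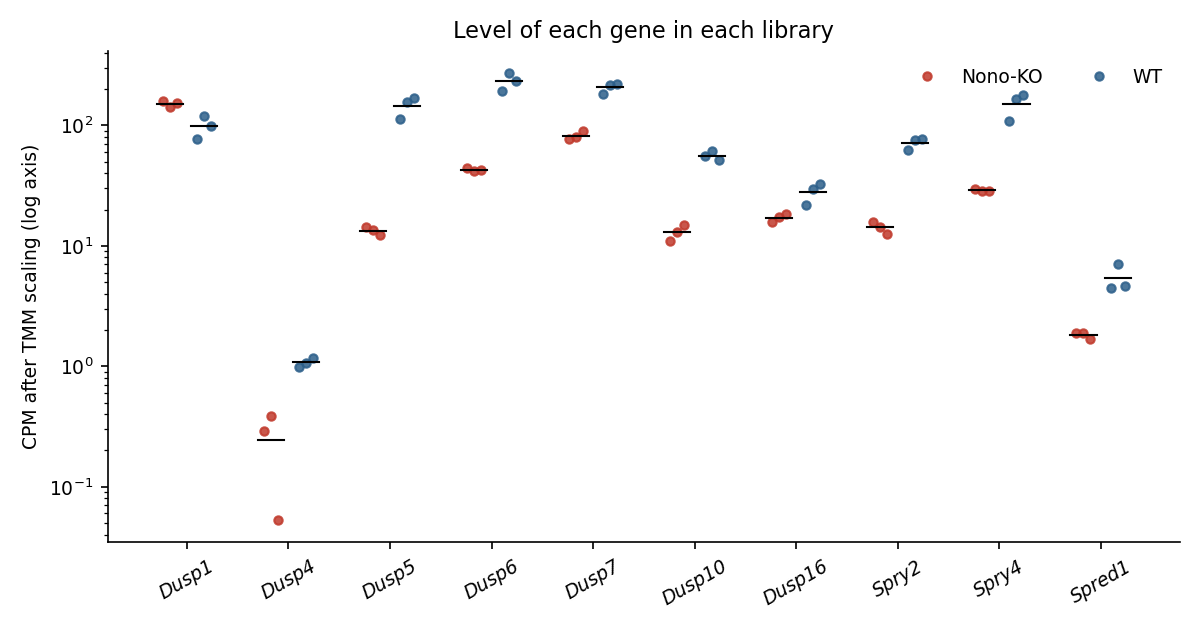
CPM after TMM scaling (vertical, log axis) of each of the 10 genes (horizontal) in every library, with Nono-KO on the left and WT on the right of each gene. Points are libraries and bars are means of 3. The 3 Nono-KO libraries lie below the 3 WT libraries for 9 genes and above them for Dusp1, at 141.3 to 157.7 CPM against 77.1 to 120.5 CPM.

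Among the inducible nuclear phosphatases, Dusp5 and Dusp1 moved in opposite directions. Dusp5, which binds and inactivates ERK in the nucleus, had 14.4, 13.5 and 12.2 CPM in the Nono-KO libraries, against 112.5, 155.0 and 168.7 CPM in the WT libraries. The groups were far apart, and the highest Nono-KO library was far below WT replicate 1, the lowest WT library. The mean was 13.4 ± 1.11 CPM in Nono-KO and 145.4 ± 29.3 CPM in WT cells (SD, n = 3 each), 10.9-fold lower, with a log2 fold change of -3.44 (SE, the standard error, 0.15, edgeR adjusted p = 2.14e-08). It was the largest change among the 10 genes, and 0.474% of all genes tested had a lower log2 fold change.

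Dusp1, an immediate-early phosphatase that acts on p38 and JNK as well as ERK, had 157.7, 141.3 and 153.2 CPM in the Nono-KO libraries, against 77.1, 120.5 and 98.5 CPM in the WT libraries. Every Nono-KO library was above every WT library, although WT replicate 2 came near. The mean was 150.7 ± 8.51 CPM in Nono-KO and 98.7 ± 21.7 CPM in WT cells (SD, n = 3 each), a log2 fold change of 0.61 (SE 0.14, edgeR adjusted p = 0.00163). Leaving out WT replicate 1, in which Dusp1 was lowest, gave a log2 fold change of 0.46 (edgeR adjusted p = 0.000907).

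Dusp4, a nuclear phosphatase related to Dusp1, was scarce in both groups. Its counts were 5, 7 and 1 in Nono-KO libraries against 20, 20 and 21 in the WT libraries, which put the groups apart but rested on 13 reads in all in Nono-KO cells. The ratio of the totals was 4.46-fold lower in Nono-KO cells, with an exact 95% interval of 2.42 to 8.85 that covers counting error only. Its fitted log2 fold change was -2.12 (SE 0.46, edgeR adjusted p = 0.00138), the least precise of the 10.

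Both cytoplasmic phosphatases with a preference for ERK fell. Dusp6, which ERK signaling itself induces, had 43.9, 41.7 and 42.8 CPM in the Nono-KO libraries, against 192.5, 271.3 and 235.4 CPM in the WT libraries. The Nono-KO libraries hardly differed from each other, with a coefficient of variation of 2.48% against 16.9% in WT. The log2 fold change was -2.44 (SE 0.12, edgeR adjusted p = 4.17e-08), 5.45-fold lower. Dusp7, a close relative of Dusp6, had 77.2, 79.7 and 89.9 CPM in the Nono-KO libraries, against 181.4, 216.1 and 221.8 CPM in the WT libraries. The groups did not overlap, and the decrease was smaller than that of Dusp6, with a log2 fold change of -1.33 (SE 0.10, edgeR adjusted p = 6.37e-07).

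The phosphatases that act mainly on JNK and p38 fell by different amounts. Dusp10 had 11.1, 13.02 and 14.9 CPM in the Nono-KO libraries, against 55.7, 61.4 and 51.1 CPM in the WT libraries. All Nono-KO libraries were well below WT, and Dusp10 was the only one of the 10 genes whose lowest WT value was not in WT replicate 1. Its log2 fold change was -2.11 (SE 0.13, edgeR adjusted p = 1.30e-07). Dusp16 had 15.7, 17.4 and 18.3 CPM in the Nono-KO libraries, against 21.6, 29.7 and 32.7 CPM in the WT libraries. Here the gap between the groups was narrow, set by WT replicate 1. The log2 fold change was -0.71 (SE 0.15, edgeR adjusted p = 0.00124), the smallest decrease of the 9, and -0.87 without WT replicate 1.

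Both Sprouty genes fell by nearly the same amount. Spry2, which restrains receptor tyrosine kinase signaling upstream of ERK, had 15.7, 14.4 and 12.6 CPM in the Nono-KO libraries, against 62.4, 75.9 and 77.5 CPM in the WT libraries. Spry4, an inhibitor of the same step, had 29.6, 28.7 and 28.6 CPM in the Nono-KO libraries, against 108.1, 165.2 and 177.2 CPM in the WT libraries. Neither gene overlapped between the groups, and WT replicate 1 was again the lowest WT library for both. The log2 fold changes were -2.34 (SE 0.12, edgeR adjusted p = 5.05e-08) for Spry2 and -2.37 (SE 0.16, edgeR adjusted p = 3.52e-07) for Spry4.

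Spred1, which brings the Ras GTPase-activating protein neurofibromin to the membrane, was of low abundance. Its counts were 32, 34 and 32 in Nono-KO libraries against 89, 133 and 83 in the WT libraries, which is 1.82 ± 0.11 CPM against 5.39 ± 1.498 CPM (SD, n = 3 each). The groups were separate, and WT replicate 2 was well above the other WT libraries. The log2 fold change was -1.56 (SE 0.24, edgeR adjusted p = 0.000115).

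**Figure D2:**
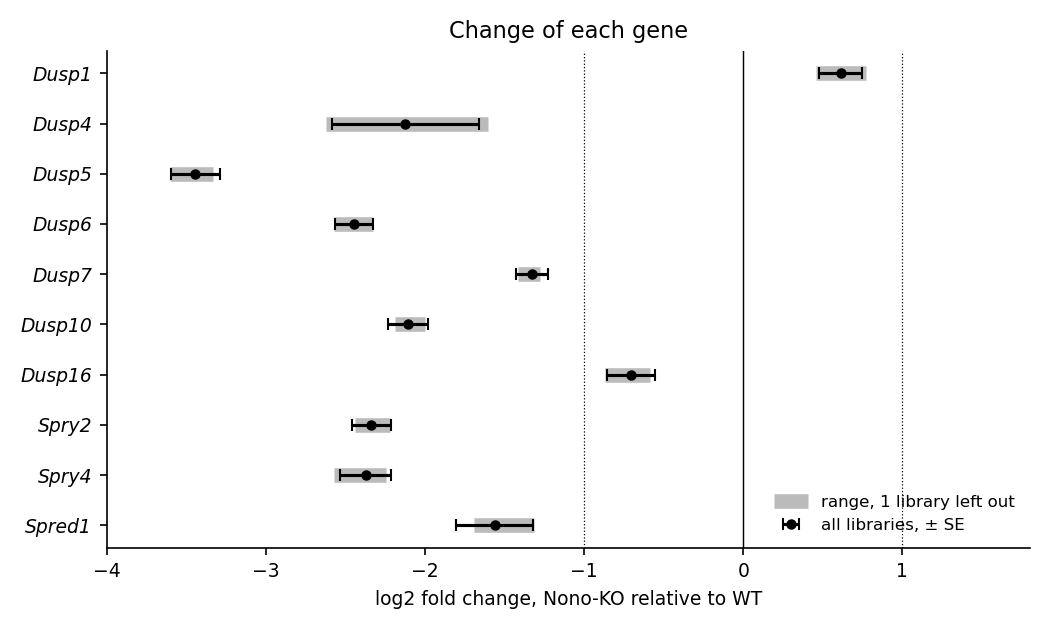
Log2 fold change, Nono-KO over WT (horizontal axis), for each of the 10 genes (vertical axis). Points are the values from all 6 libraries with their standard errors (SE), grey bars are the range when 1 library at a time is left out, and dotted lines mark -1 and 1. Dusp5 lies lowest at -3.44, Dusp1 is the only gene above 0 at 0.61, and no grey bar reaches 0.

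All Nono-KO libraries lay below all WT libraries for 9 of the 10 genes and above them for 1, beside 39% and 36.1% of all genes tested. For a single gene, the smallest two-sided p of an exact permutation test with 3 libraries a group is 0.1. WT replicate 1 had the lowest WT level of 9 of the 10 genes, Dusp1 among them, and the coefficient of variation was smaller in Nono-KO than in WT for 8 of the 10, all but Dusp4 and Dusp10. Without WT replicate 1 again 9 of the genes fell and 1 rose.

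Because these genes moved unequally, the make-up of their pooled reads differed between the groups, which can be read within a library and needs no scaling. Dusp1 held 42.9%, 40.1% and 40.9% of the reads on the 10 genes in the Nono-KO libraries, against 9.43%, 10.9% and 9.22% in the WT libraries. The ERK-directed phosphatases Dusp5, Dusp6 and Dusp7 together held 36.9%, 38.4% and 38.7% in the Nono-KO libraries, against 59.6%, 58.2% and 58.6% in the WT libraries. The shares did not overlap between the groups for either. Per read of Dusp5 there were 11.0, 10.4 and 12.6 reads of Dusp1 in the Nono-KO libraries, against 0.68, 0.78 and 0.58 in the WT libraries. Spry2, Spry4 and Spred1 held 12.8%, 12.8% and 11.5% in the Nono-KO libraries, against 21.4%, 22.5% and 24.3% in the WT libraries. The share of Dusp10 and Dusp16 did overlap, at 7.29% to 8.87% in Nono-KO and 7.85% to 9.47% in WT cells. Summed over the 10 genes, the level was 364.6 ± 11.4 CPM in Nono-KO and 996.3 ± 156.3 CPM in WT cells (SD, n = 3 each). These are shares of reads, not corrected for transcript length, and do not rank the genes by molecules.

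**Figure D3:**
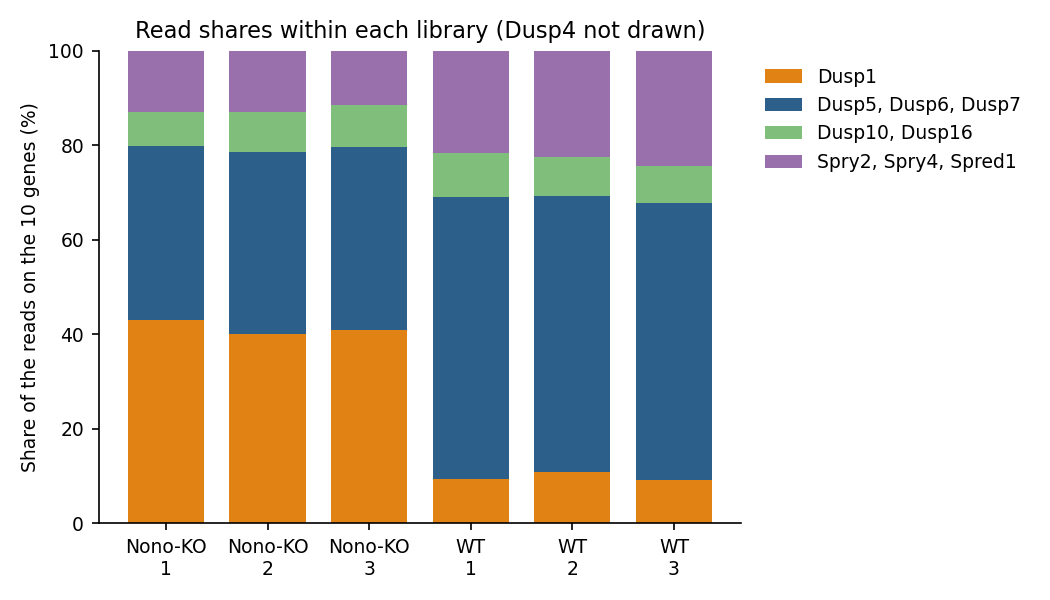
Share of the reads on the 10 genes (vertical axis, percent) held by Dusp1 and by 3 groups of genes in each library (horizontal axis), the Nono-KO libraries on the left. Dusp4 is not drawn because its share is too small to see. The Dusp1 share is 40.1% to 42.9% in Nono-KO and 9.22% to 10.9% in WT libraries.

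The remaining phosphatases and Sprouty relatives did not all follow. Dusp8, a phosphatase of JNK and p38, had 64.9, 66.7 and 66.8 CPM in the Nono-KO libraries, against 22.6, 37.5 and 44.7 CPM in the WT libraries, and rose by 0.92 on the log2 scale (SE 0.19, edgeR adjusted p = 0.00131). This is opposite in direction to Dusp10 and Dusp16, which act on the same kinases. Dusp2 and Dusp9 had at most 2 counts in any library and were not tested. Spred2, the closest relative of Spred1, had 8.25, 6.29 and 7.63 CPM in the Nono-KO libraries, against 24.8, 34.9 and 38.8 CPM in the WT libraries, and fell by 2.15 on the log2 scale (SE 0.18). Spry3 fell too, by 1.49 (SE 0.27), from low levels of 0.98 ± 0.18 CPM in Nono-KO and 2.77 ± 0.56 CPM in WT cells (SD, n = 3 each). Spry1 (log2 fold change -0.09, SE 0.20, edgeR adjusted p = 0.703) and Spred3 (-0.22, SE 0.10, edgeR adjusted p = 0.0540) did not pass.

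The table held 12 genes of the atypical Dusp group, Styx among them, of which 8 were tested. Among these, small members of the phosphatase family without the MAPK-docking domain of the classical ones, 3 rose, 3 fell and 2 did not pass. Over all genes tested, 34.2% rose and 38.1% fell. Their median log2 fold change was -0.01. Styx fell by 1.39 and was named after its values were seen. Dusp18 fell by 1.86 and Dusp11, a phosphatase of RNA, by 0.70, whereas Dusp19 rose by 1.03, Dusp14 by 0.68 and Dusp3, which can act on ERK and JNK, by 0.44. The median of the 8 was close to that of all genes tested, -0.05.

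The kinases that these phosphatases act on changed less and in both directions. Of 7 MAP kinases tested, 2 rose and 3 fell, beside 34.2% and 38.1% of all genes tested. The other 2 did not pass, and the median was -0.02. Mapk3, which encodes ERK1, averaged 443.3 ± 27.0 CPM in Nono-KO and 276.6 ± 10.5 CPM in WT cells (SD, n = 3 each), a log2 fold change of 0.68. The JNK genes Mapk8 (-1.01) and Mapk9 (-0.37) fell, and Mapk14, which encodes p38 alpha, had 116.7 ± 4.65 CPM in Nono-KO and 101.1 ± 13.1 CPM in WT cells and did not pass (edgeR adjusted p = 0.0882).

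A list of 20 genes held members of the Ras-ERK route, inhibitors of Ras and other partners of Sprouty proteins, and most were lower in Nono-KO cells. Of the 20, 14 fell and 4 rose, 2 not passing, beside 38.1% and 34.2% of all genes tested. Their median log2 fold change was -0.98. Since the list mixes activators and inhibitors, its counts give no direction for the activity of the route. Sos2, an exchange factor that loads Ras with GTP, fell by 2.31. Nf1, the neurofibromin that Spred1 recruits, had 2.52, 4.06 and 3.18 CPM in the Nono-KO libraries, against 11.8, 16.5 and 16.4 CPM in the WT libraries, with a log2 fold change of -2.19 (SE 0.21, edgeR adjusted p = 2.72e-06). Cav1, the caveolin to which Sprouty proteins can bind, fell by 3.01, and the Ras GTPase-activating protein Rasa1 had the lowest log2 fold change of this list, -3.72. The members that rose were Shc1 (0.43), an adaptor of receptor kinases, and, named after their values were seen, Map2k2 (0.98), Araf (0.63) and Hras (0.33). For Map2k2 and Araf, the relatives Map2k1 (-0.60) and Braf (-1.42) fell.

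Other regulators of ERK signaling went both ways, 3 up and 3 down of 8 tested, beside 34.2% and 38.1% of all genes tested. Errfi1, a feedback inhibitor of the EGF receptor, had 53.3, 48.6 and 52.6 CPM in the Nono-KO libraries, against 238.3, 454.9 and 463.1 CPM in the WT libraries (log2 fold change -2.90). Rasa3 fell by 1.32. Pebp1, an inhibitor of Raf (0.85), Pea15, which keeps ERK in the cytoplasm (0.40), and Ier3, an ERK-induced early gene (0.47), rose.

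Genes whose transcription is known to depend on ERK were lower together with the feedback genes. Of 12 tested, 11 fell and 1 rose, beside 38.1% and 34.2% of all genes tested, with a median log2 fold change of -1.27. This list was chosen with earlier results of these data known. The growth factor-induced transcription factor Egr1 had 12.0, 11.0 and 11.4 CPM in the Nono-KO libraries, against 108.9, 177.6 and 188.1 CPM in the WT libraries (log2 fold change -3.78). Myc (-3.48), Fosl1, an AP-1 subunit (-2.72), and the EGF receptor ligand Hbegf (-2.45) also fell by large amounts, and cyclin D1 (Ccnd1) fell by 1.02 and the ephrin receptor Epha2 by 0.42. Etv4, an ETS factor, was the 1 that rose (0.52), named after its values were seen, whereas its relative Etv5 fell (-1.52). No protein or phosphorylation of ERK was measured in these files.

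**Figure D4:**
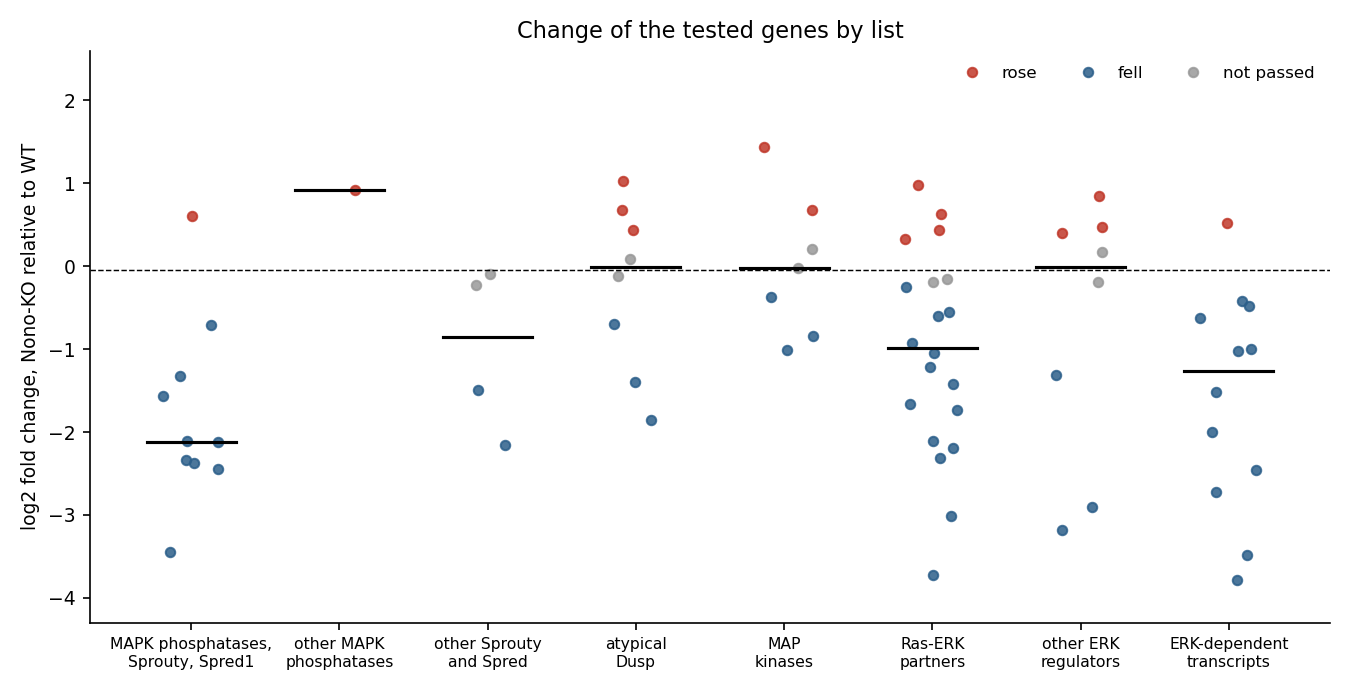
Nono-KO over WT change on the log2 scale (vertical axis) of each tested gene in the 10 feedback genes and 7 related lists (horizontal axis). Each point is 1 gene, red if it rose, blue if it fell and grey otherwise. Bars are medians and the dashed line is the median of all genes tested, -0.05. The medians are -2.12 for the 10 genes, -0.98 for the Ras-ERK partners and -1.27 for the ERK-dependent transcripts, and the atypical Dusp genes and MAP kinases have medians of -0.01 and -0.02.

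Dusp1 is also induced by stress, by cyclic AMP and by glucocorticoids, and genes that respond to these were therefore set beside it. Of 17 early genes that respond to growth factors or stress, 10 fell and 3 rose, 4 not passing, with a median of -0.82. Over all genes tested, 38.1% fell and 34.2% rose. Fos and Egr1 (-3.78) were also counted among the ERK-dependent genes above, and Nr4a1 is also counted among the targets below. Fosb (-2.55), Junb (-1.88) and Ier2 (-1.85) fell, while Ier5, with 364.4 ± 13.97 CPM in Nono-KO and 320.03 ± 47.3 CPM in WT cells (SD, n = 3 each), did not pass (0.19). Those that rose were Jund (1.42), Klf2 (0.55) and Atf3 (0.54), named after their values were seen. Dusp1 thus moved opposite to 10 of the 17 early genes listed. Of 10 tested targets of glucocorticoids or cyclic AMP, 5 fell and 2 rose, 3 not passing. The 2 that rose were Tsc22d3, a glucocorticoid target (0.52), and Sik1, a target of cyclic AMP signaling (0.64), whereas Sgk1 (-4.66), Nr4a1 (-0.82) and Klf9 (-0.63) fell and Per1 did not pass (-0.22).

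Markers of muscle differentiation differed between the groups alongside these genes. Over all genes tested, 34.2% rose and 38.1% fell. Of 6 tested markers of skeletal myoblasts and their differentiation, 5 rose and 1, Myod1, did not pass. Their summed level was 811.8 to 986.3 CPM in Nono-KO and 153.6 to 201.1 CPM in WT libraries. Acta1 was the largest part of the Nono-KO sums, with 437.7, 557.2 and 444.6 CPM. Myog, a transcription factor of differentiating myoblasts, averaged 105.6 ± 10.1 CPM in Nono-KO and 6.50 ± 1.63 CPM in WT cells (SD, n = 3 each). Of 6 smooth muscle markers 5 rose and 1 fell, with sums of 14359 to 15411 CPM in Nono-KO and 6485 to 7275 CPM in WT libraries. Of the cardiomyocyte markers 6 were tested, of which 3 rose and 3 did not pass. Their sums were 180.0 to 209.2 CPM in Nono-KO and 48.2 to 127.6 CPM in WT libraries. Tnnt2, the largest part of the Nono-KO sums, did not pass (edgeR adjusted p = 0.180). It had 13.4 CPM in WT replicate 1, against 78.0 and 83.0 CPM in the other WT libraries. Fibroblast markers summed to 28839 to 33960 CPM in Nono-KO and 37362 to 45205 CPM in WT libraries, with 1 risen and 3 fallen of 5 tested and Pdgfra, Dcn and Lum near 0. The part of the differentiation state in the changes of the 10 genes was not tested. Markers of endothelial cells summed to at most 1.22 CPM in Nono-KO and 4.45 CPM in WT libraries, and those of immune cells to at most 1.00 CPM in Nono-KO and 1.24 CPM in WT libraries.

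Genes next to the 10 along the chromosome went both ways. In the gene order of GRCr8, the 20 nearest tested neighbours, 1 on each side, comprised 6 that fell, 7 that rose and 7 that did not pass. Their median log2 fold change was -0.02. These counts are near the shares of all genes tested, 38.1% fallen and 34.2% risen, and a local effect was not tested. Both neighbours of Dusp1, which rose, rose as well (Ergic1, 0.38, and Neurl1b, 0.68). Both neighbours of Dusp7, which fell, rose (Poc1a, 0.67, and Acy1, 0.46), and beside Dusp6 the ligand gene Kitlg fell by 2.99. These neighbours were named after their values were seen.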

How the data were processed

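Raw read counts per gene symbol were deposited, 1 column per library, without scaling or pooling, and the 6 single-library files held the same values as the table. Trimming with Trimmomatic, alignment with HISAT2 to mRatBN7.2 and counting with HTSeq are listed in the notes of the submitters. The published methods differ and give Bowtie2 with Rn6. For the annotation and the strand option of HTSeq the sources used here give nothing, so reads of overlapping or antisense genes cannot be told apart. Libraries were made with a stranded mRNA kit.

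The counts were analysed in R 4.3.3. Nono-KO was compared with WT in edgeR 4.0.16 (quasi-likelihood F test) with TMM scaling, robust dispersions and the default filterByExpr filter (minimum count 10), which kept 12028 of 16319 genes. P-values were adjusted by Benjamini-Hochberg over all genes tested. Standard errors were obtained as the size of the log2 change over the root of F. P-values measure only the spread between these libraries, which may be technical. Libraries of a group differed by more than sampling noise (chi-square per degree of freedom 2.60 to 10.3 in Nono-KO and 11.3 to 24.4 in WT). With totals near those given in the report, genes with a few counts have imprecise fold changes.

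The 10 genes and the related lists were chosen with earlier results of these data known. All 10 are named, with every gene of lists under 6 genes, and of longer lists up to 4 with the largest change that passed, at 5 CPM or more in the higher group, and the 2 most abundant. Some genes of the lists are counted but not reported here by name. Alternatives were DESeq2 1.42.0, RLE, upper quartile and total count scaling, other filters and thresholds, the replicate number as a block and leaving out each library. The test was checked on simulated data. Transcript lengths of the authors' build were not used, so that CPM of different genes, also where the naming rule takes the most abundant, are reads and not molecules. ATAC-seq data were not analysed here.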

Additional observations from a re-analysis of the deposited data

How the results depend on the processing

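The counts of 9 genes that fell and 1 that rose held with DESeq2, with the 3 other scalings, with both other filters and without any single library, with each gene keeping its direction. The median log2 fold change of the 12028 genes over the scalings was -0.11 to 0.00, against -0.05. The study's DEG thresholds change the adjusted p (0.01 in place of 0.05) and the limit on size together, and their parts were not separated. At them 0 of the 10 were higher, Dusp1 (log2 fold change 0.61, unadjusted p = 0.00081 from edgeR) being within the limit on size, and 3 of the other pathway genes were higher, against 19 at an adjusted p under 0.05 alone. Over all genes 2252 were lower and 1294 higher at both thresholds, against 4578 and 4108 at an adjusted p under 0.05 alone. When edgeR's glmTreat asked for a log2 fold change beyond 1, 0 of the 10 rose, and 27 of the other pathway genes fell and 1 rose, against 48 and 19, with 1395 lower and 788 higher over all genes. Dusp16, with a log2 fold change of -0.71, also missed the limit on size, both at the study's thresholds and with glmTreat. These limits ask for larger changes by construction. With the replicate number as a block 9 of the 10 fell and 1 rose, and 4443 genes fell and 3944 rose in all. Same-numbered libraries did not deviate together (correlations of deviations 0.07, -0.21 and -0.24), so the numbers were not taken as pairs. Leaving out 1 library moved Dusp4 most, between -2.62 and -1.60 on the log2 scale. Depth limits Dusp4, with 13 reads in all in Nono-KO cells, and leaves Dusp2 and Dusp9 untested.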
